A study of Drosophila melanogaster with 2 samples.

Results

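The genes that encode the proteins of the cytoplasmic ribosome were examined for peaks of Gcm, a zinc-dependent DNA-binding protein named after the fly mutation glial cells missing. Members were all protein-coding genes of Drosophila melanogaster whose Ensembl symbol begins with RpL or RpS followed by a digit, which gave 88 of the 13945 protein-coding genes on the 6 chromosome arms used. Of these, 50 carry the large subunit prefix RpL and 38 the small subunit prefix RpS. Chromatin immunoprecipitation and sequencing (ChIP-seq) had been done on whole embryos of mixed sex, aged 0 to 16 h, from the strain gcm-GFP. This transgenic line carries an insertion aimed at gcm and stably expresses Gcm with green fluorescent protein (GFP) at its C-terminus, and chromatin sheared by sonication, with a stated size range of 200 to 800, was precipitated with an antibody against GFP. The 2 samples are biological replicates 1 and 3 of 1 group and carry the same donor label, so the design holds no contrast between groups. The promoter that drives the fusion is not given in the sources used here, and in whole embryos the cells that hold the bound chromatin cannot be told apart.

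The ribosome is the particle that translates messenger RNA into protein, and its proteins are made in near equal amounts in every growing cell. In flies, most ribosomal protein genes start transcription at a short pyrimidine stretch called the TCT element, which takes the place of the usual initiator, and depend on the TBP-related factor Trf2 instead of the TATA-binding protein. Loss of 1 copy of many of them gives the Minute phenotype of slow growth and short bristles. Gcm is best known for directing glial fate in the embryonic nervous system and for its role in embryonic blood cells.

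Each replicate had its own list of 30000 peaks, a pooled list of 30000 peaks was called on both, and a list of 5707 peaks had passed an irreproducible discovery rate (IDR) threshold, a measure of how well peak ranks repeat between replicates. All 5707 were found unchanged in the pooled list, where they were the 5707 peaks of highest signal. The signal is the value the authors' peak caller gave to each peak. Its scale differs between lists, with medians of 50.9 in replicate 1, 42.6 in replicate 3 and 85.0 in the pooled list. A gene was called bound in a list when a peak summit lay within 500 bp of any of its annotated transcription start sites. Peak lists hold no library totals, so read depth is unknown. Positions are 1-based on the build dm6.

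Ribosomal protein genes had a called peak at a start far more often than protein-coding genes in general. Bound here means only that a peak was called. No precipitation from embryos without the tagged protein was analysed here, and how far peaks at highly transcribed genes reflect the assay was not tested. In the IDR-thresholded list 64 of 88 had a summit within 500 bp of a start, or 72.7% with an exact (Clopper-Pearson) 95% interval of 62.2% to 81.7%, against 18.9% of all protein-coding genes. In the pooled list 73 of 88 (83.0%) were bound, against 41.4% of all genes. Replicate 1 alone had a summit at 75 members (85.2%), against 44.2% of all genes, and replicate 3 at 73 (83.0%), against 42.4%. When each replicate was reduced to its own strongest 5707 peaks, 67 members (76.1%) were bound in replicate 1, against 19.4% of all genes, and 61 (69.3%) in replicate 3, against 19.0%. Over these replicate lists the share of members bound was 72.7% ± 4.82 (SD, n = 2) and that of all genes 19.2% ± 0.330 (SD, n = 2). The gap between members and all genes was thus wider than the spread between replicates. Intervals cover counting error only, and genes are not replicates of a condition.

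**Figure D1:**
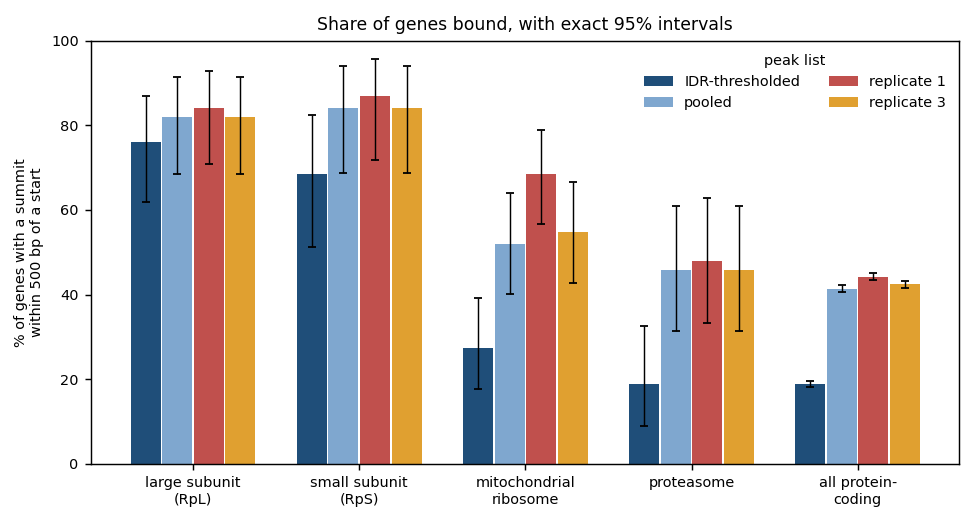
The percentage of genes with a summit within 500 bp of a start (vertical axis) is plotted for large and small subunit genes, 2 comparison groups and all protein-coding genes, with bars coloured by peak list and error bars for exact 95% intervals. Both subunits stand at 68.4% or more in every list shown, and the mitochondrial ribosome at 27.4%, the proteasome at 18.8% and all genes at 18.9% in the IDR-thresholded list.

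Most ribosomal protein genes carried the letters of a TCT element within 10 bp of a start, and unbound extra copies made up 8 of the 16 that did not. The element was sought on the gene strand as CTTT with a pyrimidine (C or T) on each side, and with its C within 10 bp of any annotated start. It was found at 72 of 88 members (81.8%) and at 4.09% of all protein-coding genes. Among bound members 57 of 64 (89.1%) had it, and among unbound members 15 of 24 (62.5%). With the C within 2 bp of a start, 11 of 64 bound (17.2%) and 5 of 24 unbound members (20.8%) had it. The windows below show the element in capitals, in the gene's direction, with the annotated start as letter 61; letters come from the RefSeq Release 6 genome, whose coordinates are those of dm6. They are shown because they set bound genes beside their unbound copies. RpL34b (chr3R:9401212-9401286, minus strand) and RpL14 (chr3L:8600946-8601020, plus strand) are among the members with the highest peaks. RpS5a (chrX:17148250-17148324, minus strand), RpS19a (chrX:16637834-16637908, plus strand), RpS10b (chrX:19597980-19598054, plus strand) and RpL10Ab (chr3L:11822791-11822865, plus strand) were bound. Their copies RpS5b (chr3R:14901549-14901623, minus strand), RpS19b (chr3R:23933516-23933590, minus strand), RpS10a (chr3R:27652700-27652774, plus strand) and RpL10Aa (chr3R:15037306-15037380, plus strand) were not. RpL15 (chr3L:27267196-27267270, plus strand) was unbound although it holds the element.
RpL34b: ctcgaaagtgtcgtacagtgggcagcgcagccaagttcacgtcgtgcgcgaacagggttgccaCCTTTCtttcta
RpL14: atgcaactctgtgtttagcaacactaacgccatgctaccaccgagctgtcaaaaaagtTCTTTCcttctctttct
RpS5a: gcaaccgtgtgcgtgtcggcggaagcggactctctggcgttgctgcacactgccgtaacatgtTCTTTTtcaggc
RpS5b: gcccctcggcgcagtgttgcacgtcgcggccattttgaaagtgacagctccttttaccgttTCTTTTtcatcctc
RpS19a: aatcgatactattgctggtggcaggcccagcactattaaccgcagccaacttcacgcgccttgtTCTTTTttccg
RpS19b: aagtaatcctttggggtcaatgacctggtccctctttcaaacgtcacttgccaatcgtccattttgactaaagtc
RpS10b: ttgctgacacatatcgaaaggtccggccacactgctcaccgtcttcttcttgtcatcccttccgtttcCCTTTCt
RpS10a: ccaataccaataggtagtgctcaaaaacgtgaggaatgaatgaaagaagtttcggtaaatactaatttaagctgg
RpL10Ab: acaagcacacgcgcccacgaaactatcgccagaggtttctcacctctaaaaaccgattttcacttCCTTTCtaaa
RpL10Aa: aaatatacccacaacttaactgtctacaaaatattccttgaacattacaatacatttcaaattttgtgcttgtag
RpL15: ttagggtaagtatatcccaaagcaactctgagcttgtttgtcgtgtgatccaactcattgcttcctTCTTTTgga
The 4 bound copies and RpS5b hold the element near the start, and RpS19b, RpS10a and RpL10Aa hold none within 10 bp of it.

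The peaks at ribosomal protein genes ran from close to the IDR threshold up to rank 203 of the list. The median of the highest summit per bound member was 405 in the IDR-thresholded list, with a lowest value of 195 and a highest of 1069, against a median of 335 over all 2633 bound genes. In the pooled list, which reaches weaker peaks, the members' median was 389 against 175 for all bound genes, or 2.22 times as high. In replicate 1 the medians were 208 for members and 98.2 for all bound genes, and in replicate 3 they were 183 and 80.0. Among the strongest 2853 peaks the medians were 481 and 491, so there the members were not higher. By rank in the IDR-thresholded list, 28 bound members (43.8%) had ranks 1 to 1426, where 33.1% of all bound genes stood. A further 17 members had ranks 1427 to 2853, 11 had ranks 2854 to 4280 and 8 had ranks 4281 to 5707. None of the members reached the highest signals of the list, which went up to 5118.

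**Figure D2:**
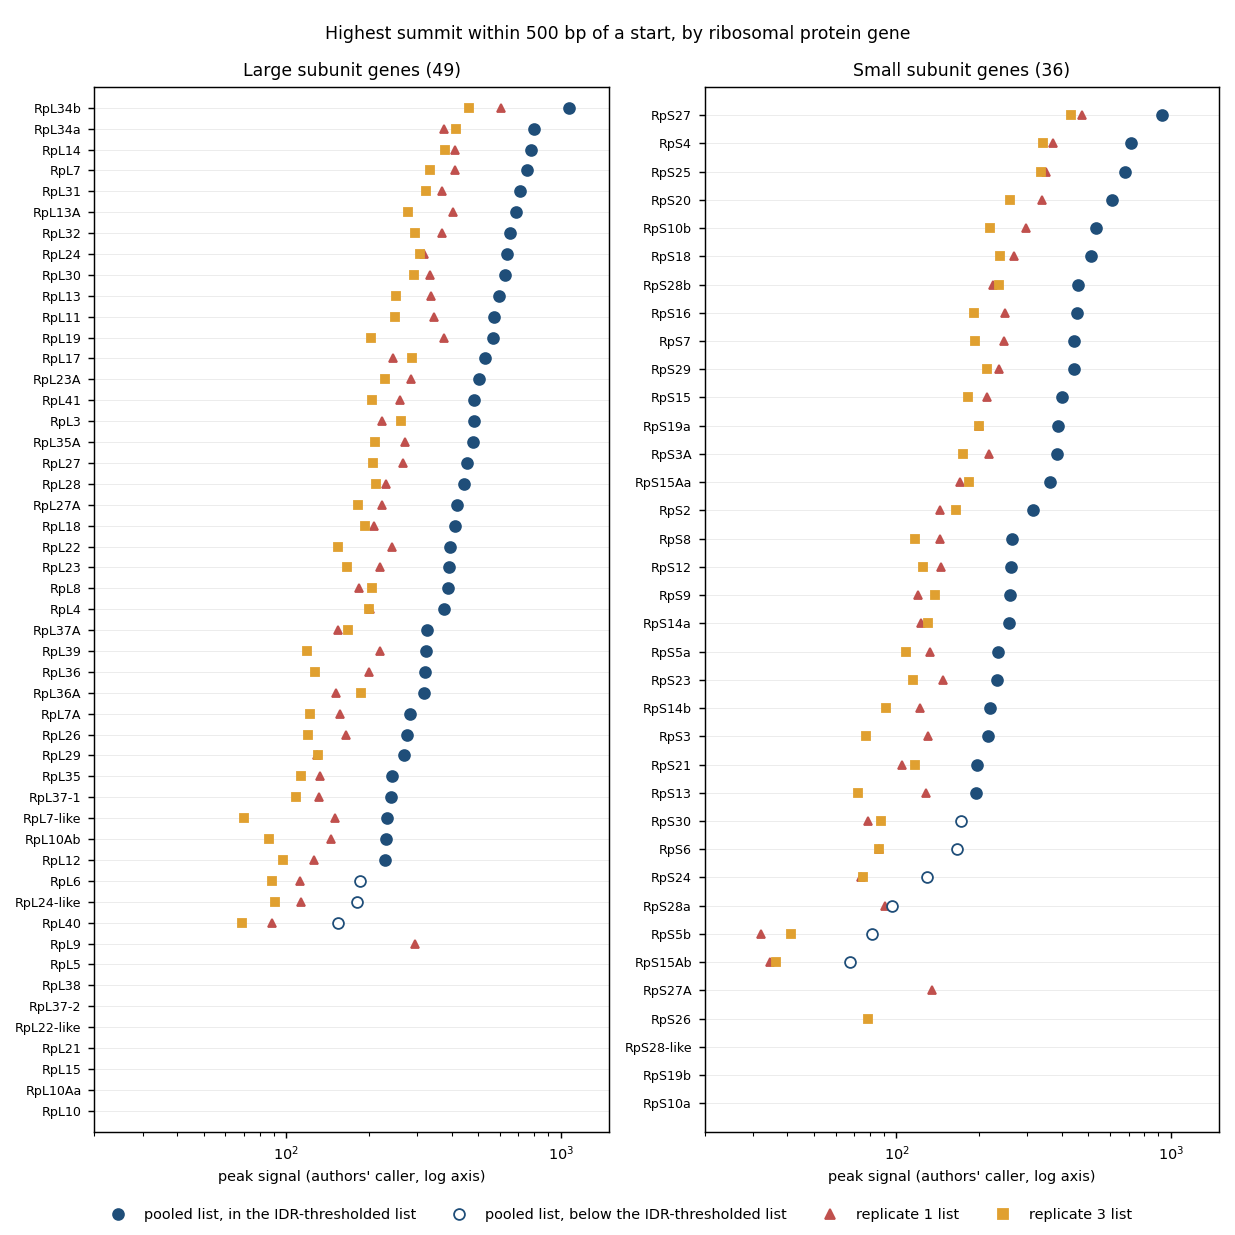
Each row is a ribosomal protein gene (49 large and 36 small subunit genes are shown) and the horizontal log axis gives the signal of its highest summit within 500 bp of a start, in the pooled list (circles, filled where the peak is in the IDR-thresholded list), replicate 1 (triangles) and replicate 3 (squares). Pooled signals run from 67.4 to 1069, replicate values are lower, each list having its own scale, and follow a broadly similar order with exceptions such as RpL34a and RpL14, and rows without symbols had no summit.

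RpL34b, a large subunit gene on arm 3R, had the highest peak of all members (chr3R:9401180-9401588), with signals of 607 in replicate 1, 464 in replicate 3 and 1069 in the pooled list. Its summit lay at -153 bp from the gene's start, that is upstream, and 116 bp from the start of CG8132, so it was nearer to the neighbour. RpS27, the highest small subunit gene, stood at 472, 434 and 929 in the same order (chr3R:25247321-25247734), 17 bp upstream of a start and also within 500 bp of the start of Nup37, a nuclear pore gene. Among the 5707 peaks these genes had ranks of 203 and 296.

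The other members with high peaks were mostly large subunit genes, as were 38 of the 64 bound members. Most of these high members also faced a neighbour, against 42.2% of bound members and 48.0% of all bound genes. The named genes are too few to be set apart from these shares. RpL34a, the other copy of RpL34b, had 374 in replicate 1, 415 in replicate 3 and 798 in the pooled list, with Trmt61 within 500 bp. RpL14 had 410, 378 and 781 next to Nelf-E, a subunit of the negative elongation factor. RpL7 had 410, 333 and 754 next to Ripalpha. RpS4, at 372, 342 and 713, and RpL31, at 368, 323 and 708, had no other protein-coding start within 500 bp of the summit. RpL13A reached 405, 277 and 688 beside Dph4 and Spec2, and RpS25 reached 351, 336 and 679 beside CG4820. RpL32, the gene known as rp49 and widely used as a reference in expression assays, reached 369, 295 and 653 beside CG7943. RpL24 was the last of the highest 12, at 318, 306 and 637, with no neighbouring start. At the other end, RpS21 (196) and RpS13 (195) had the lowest signals of the bound members, just above the lowest signal in the IDR-thresholded list (190).

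Large and small subunit genes were bound at shares whose intervals overlap. In the IDR-thresholded list 38 of 50 large subunit genes (76.0%, 61.8% to 86.9%) and 26 of 38 small subunit genes (68.4%, 51.3% to 82.5%) were bound, against 18.9% of all genes. In the pooled list the order was the other way round, with 41 of 50 (82.0%) and 32 of 38 (84.2%). Over the replicates' strongest peaks the shares were 78.0% ± 5.66 for the large and 65.8% ± 3.72 for the small subunit (SD, n = 2). The median signal was 450 at large and 373 at small subunit genes in the IDR-thresholded list. In the replicates' full lists it was 227 and 144 in replicate 1 and 203 and 152 in replicate 3, so large subunit genes were higher in both. The difference in share was not tested, since the subunits are genes within the same chromatin and not samples.

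The summits sat at the start itself, closer than at bound genes in general. The median distance of the highest summit from the nearest start, without regard to side, was 38.5 bp for the 64 bound members and 145 bp for all bound genes. Of the members, 41 (64.1%) had it within 50 bp and 55 (85.9%) within 100 bp, against 14.9% and 30.5% of all bound genes. With side counted, the median was -7.5 bp for members, 36 of them upstream, and -134 bp for the other 2569 bound genes, 80.0% of them upstream. The replicates' strongest peaks gave medians without regard to side of 43 bp in replicate 1 and 30 bp in replicate 3 for members, and 145 bp and 148 bp for all bound genes. RpL13 (2 bp), RpS19a (2 bp), RpL39 (1 bp) and RpS29 (1 bp) had summits almost on a start.

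**Figure D3:**
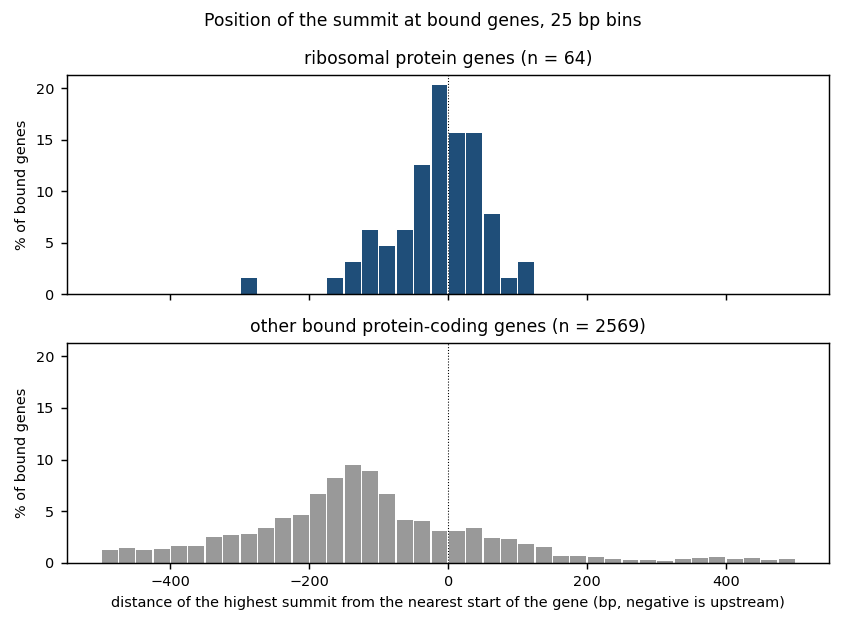
The distance of the highest summit from the nearest start of the gene (horizontal axis, bp, negative upstream) is shown as the percentage of bound genes per 25 bp bin for the 64 bound ribosomal protein genes and the other 2569 bound genes. The members' summits gather around the start, with a median of -7.5 bp, while those of the other genes peak upstream, with a median of -134 bp.

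The closeness was also seen at members with 1 annotated start and at members without neighbours. Members with 1 annotated start had a median distance of 40 bp (n = 27), against 146 bp at the other bound genes with 1 start (n = 1405). Members with no other gene's start within 500 bp of the summit had a median of 29 bp (n = 37), against 159 bp at other such genes (n = 1333). With the annotated gene start alone in place of every transcript start the medians were 51.5 bp for members and 143 bp for all bound genes, and the members' signed median turned to 22.5 bp downstream. Bound genes outside the group that also held the TCT element (n = 142) had a median of 171 bp, with 17.6% within 50 bp, against 38 bp and 64.9% for members with the element (n = 57). In the annotation, 27 of the members' summits lay outside the gene, 26 in the 5' untranslated region and 11 in an intron.

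A member's own start was the nearest start to its summit at 62 of 64 bound members (96.9%), against 75.2% of all bound genes. The exceptions were RpL34b, described above, and RpL7-like, whose summit lay at -289 bp from its start and 5 bp from a start of JhI-21. These 2 were also the bound members farthest from their starts. Just outside the limit of 500 bp were RpS28a, with an IDR-thresholded summit of signal 1191 lying 576 bp downstream of its start, and RpS19b, with 1 of signal 437 lying 0.882 kb upstream. Neither was called bound in the IDR-thresholded list.

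A summit within 500 bp of the starts of several genes cannot be assigned to 1 of them, and this held for many members. Another protein-coding gene's start lay within 500 bp of the summit at 27 of 64 bound members (42.2%, 29.9% to 55.2%), against 48.0% of all bound genes. The median signal was 482 at these 27 members and 385 at the 37 members without such a neighbour, and 352 and 325 at all bound genes. Bound members had a neighbouring start within 500 bp of their own more often than unbound members, at 29 of 64 (45.3%) and 5 of 24 (20.8%), and among all genes the shares were 51.3% and 26.2%. The part that neighbouring starts have in the members' binding was not tested. RpL13 shares its peak (chr2L:9967154-9967467, pooled signal 594) with Dref, the gene of the factor that binds the DNA replication-related element. The summit lay 2 bp from the start of RpL13 and at -82 bp from that of Dref.

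The replicates ranked the members alike. Of the 72 members with a summit in both replicate lists, 52 had a higher signal in replicate 1. The replicate 1 signal was a median of 1.19 times that of replicate 3 over these 72. At the 64 bound members alone it was 1.21 times, against 1.27 times at bound genes in general. Over the 72 members ratios ran from 0.777 at RpS5b and 0.809 at RpL36A to 1.84 at RpL19, 1.84 at RpL39 and 2.15 at RpL7-like. RpL7-like had signals of 151 in replicate 1 and 70.3 in replicate 3. Across these 72 genes the signals had a Spearman's rho of 0.919, given as a description since both lists share the annotation and their control. For the 64 bound members rho was 0.897, against 0.833 for bound genes in general. The summits of the replicates lay a median of 20 bp apart. All 64 bound members had a summit in both replicate lists, as had 2567 of all 2633 bound genes. This follows largely from the IDR-thresholded list, which was made from these replicates. Of the bound members, 59 were within the strongest 5707 peaks of both replicates, a count not taken over all bound genes.

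The 24 unbound members fall into 3 sets. In the first, 9 had a pooled peak below the IDR threshold, at RpL6 (186), RpL24-like (181), RpS30 (171), RpS6 (167), RpL40 (154), RpS24 (129), RpS28a (96.1), RpS5b (81.4) and RpS15Ab (67.4). RpS6 is the classic substrate of the growth-regulated kinase of ribosomal protein S6, and RpL40 and RpS30 are made as fusions to ubiquitin or a ubiquitin-like protein. RpL6 had signals of 112 in replicate 1 and 88.6 in replicate 3, close to the lowest values of the bound members. In the second set, 3 members had a summit in 1 replicate alone. RpL9 had a signal of 294 at rank 1068 in replicate 1 and none in replicate 3 or the pooled list. RpS27A, also a ubiquitin fusion, had 134 in replicate 1 alone and RpS26 had 78.9 in replicate 3 alone. These 3 differ between the lists of the replicates, and RpL9 does so at a signal above the median of the bound members in replicate 1 (208).

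The third set had no summit in any list within 500 bp and held 12 genes, among them RpL5, RpL10, RpL10Aa, RpL15, RpL21, RpL22-like, RpL37-2, RpL38, RpS10a, RpS19b and RpS28-like. Some of them stood in stretches without peaks. The nearest pooled summit was 4307 kb away from RpL15, 390 kb from RpL5, 244 kb from RpL38, 135 kb from RpL10 and 101 kb from RpL21. None of the other protein-coding genes within 250 kb was bound in the IDR-thresholded list at RpL15 (3 genes), RpL5 (5), RpL38 (7) and RpL21 (22), and at RpL10 5 of 25 were. Of all protein-coding genes 18.9% were bound, so finding none among 3, 5 or 7 genes says little. RpL5, RpL15, RpL21 and RpL38 are known to lie in or near the heterochromatin around the centromeres, and the part of this location in their lack of peaks was not tested. No summit was called at these genes, which does not show that the factor was absent from them.

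Extra gene copies made up 9 of the 24 unbound members. By symbol alone, 11 families had 2 or more copies, with 23 members in all. Whether each copy, such as those named -like, encodes a protein of the ribosome was not examined. In 3 families every copy was bound (RpL7 with RpL7-like, RpL34a with RpL34b, and RpS14a with RpS14b), and in the other 8 exactly 1 copy was bound. The summits at RpL7-like and RpL34b lay nearer to the starts of JhI-21 and CG8132 than to their own. Bound were 14 of 23 members with copies (60.9%, 38.5% to 80.3%) and 50 of 65 without (76.9%, 64.8% to 86.5%), against 18.9% of all genes. In each of the 8 families the bound copy had a signal of at least 230, at RpL10Ab, and up to 637, at RpL24. RpL22 had 243 in replicate 1 and 154 in replicate 3, while its copy RpL22-like had no summit. RpS10b had 296 and 219, RpS19a 200 and 200, and RpL10Ab 146 and 86.3, and RpS10a, RpS19b and RpL10Aa had none. RpS28b had 224 and 236, RpS28a 90.9 in replicate 1 and no summit in replicate 3, and RpS28-like none. RpS15Aa had 170 and 184 where RpS15Ab had 34.8 and 36.5, and RpS5a had 133 and 109 where RpS5b had 32.1 and 41.3. RpL24 had 318 and 306 where RpL24-like had 113 and 91.3. That the unbound copy was lower or without a summit in both replicates follows largely from the choice of these families, since the IDR-thresholded list was made from the same replicates.

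**Figure D4:**
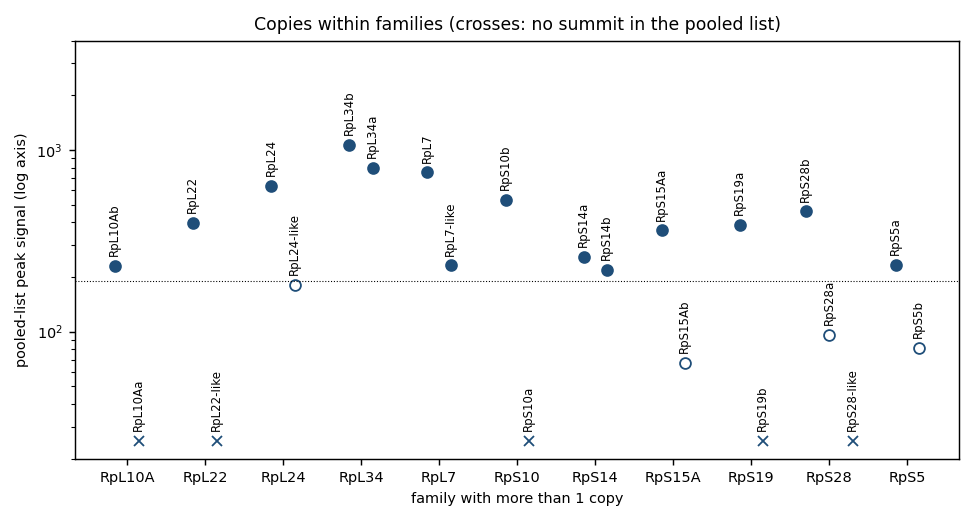
The pooled-list signal (vertical log axis) of each copy is shown for the 11 families with 2 or more copies, with filled circles for peaks in the IDR-thresholded list, open circles for weaker peaks, and crosses, placed at the foot of the axis with no value, for copies without a summit. The dotted line marks the lowest signal of the IDR-thresholded list (190), and in 8 families only 1 copy lies above it.

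RpL22-like, RpS5b, RpS10a and RpS19b are known as copies with expression enriched in the germ line, while RpL22, RpS5a and RpS19a are expressed broadly. Of the 9 unbound copies, 8 lacked the TCT element (RpL10Aa, RpL22-like, RpL24-like, RpS10a, RpS15Ab, RpS19b, RpS28-like and RpS28a), and the ninth, RpS5b, had it. Of the 14 bound copies, 13 had it and RpL34a did not. Among members of families with 1 copy the element was as common in unbound genes, at 14 of 15, as in bound genes, at 44 of 50. RpS14a and RpS14b are neighbours on the X chromosome with near-identical sequence, so reads may be split between them, and their signals (258 and 219) are uncertain. RpL37-1 (241) and RpL37-2 (no summit) are a similar pair that the symbol rule did not join, and they were singled out after their values were seen. Both hold the TCT element and were counted among families of 1 copy. Joined, they would add an unbound copy with the element.

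Members with and without the start element were bound at different shares, and the lower share without it was seen among extra copies and not among families of 1 copy. Over all members 57 of 72 with it (79.2%) and 7 of 16 without it (43.8%) were bound. Among families of 1 copy the order was the other way round, with 44 of 58 (75.9%, 62.8% to 86.1%) and 6 of 7 (85.7%, 42.1% to 99.6%). Among copies the counts were 13 of 14 and 1 of 9. These differences were not tested. Among the other protein-coding genes 142 of 498 with it (28.5%) and 18.2% of those without it were bound. Bound members had several annotated starts more often than unbound ones, at 37 of 64 against 6 of 24, which offers more windows for a match. Among members with 1 annotated start, 24 of 27 bound (88.9%) and 9 of 18 unbound had the element, against 2.76% of all genes with 1 start. With the C within 2 bp of a start, the element was found at 16 of 88 members (18.2%) and 0.861% of all genes, so most matches lay a few bases off the annotated start.

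The recognition word of Gcm itself was absent from the members' promoters as searched. The words ATACGGGC, ATACGGGT, ATGCGGGC and ATGCGGGT were sought on both strands from 250 bp before to 50 bp after the gene start. They were found at 0 of 64 bound members, which allows a share of up to 5.60%, at 0 of 24 unbound members and at 1.86% of all bound genes and 0.947% of all protein-coding genes. Within 100 bp of the summit they were found at 0 of 64 members and 3.80% of all bound genes. The shares of 1.86% and 3.80% both lie below 5.60%, so in this the members cannot be told apart from bound genes in general. A missing match says only that these letters are not in the window.

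**Figure D5:**
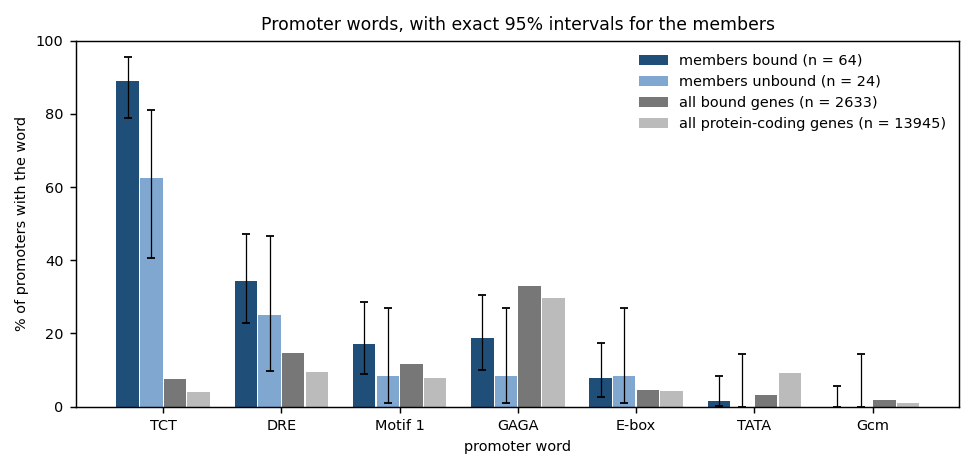
The percentage of promoters that hold each word (vertical axis) is plotted for the 64 bound and 24 unbound members, with exact 95% intervals, beside all bound genes and all protein-coding genes. The TCT element, sought within 10 bp of a start, stands at 89.1% and 62.5% in members and 7.56% and 4.09% in the gene sets. The Gcm word stands at 0% in members and at 1.86% and 0.947% in the gene sets.

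Other promoter words were present in part of the members. TATCGATA, the DNA replication-related element (DRE) bound by Dref, was found in the same window on either strand at 22 of 64 bound members (34.4%) and 6 of 24 unbound members, against 14.6% of all bound genes and 9.36% of all genes. GGTCACAC, the core of Motif 1, which M1BP binds, was found at 11 bound members (17.2%) and 2 unbound ones (8.33%), against 11.6% and 7.70%. GAGAG, the word of the GAGA factor, was less frequent at bound members (12 of 64, 18.8%) than at all bound genes (33.0%) or all genes (29.7%). The E-box CACGTG was found at 5 bound (7.81%) and 2 unbound members (8.33%), all 7 in the large subunit, against 4.63% and 4.20%. TATAAA, sought on the gene strand 45 to 15 bp before the start, was found at RpL39 alone, or 1.56% of bound members, against 3.19% of all bound genes and 9.14% of all genes. Words can overlap at their ends, as the Motif 1 core ends with the letters that open the E-box, and such overlaps were not set apart.

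Near the summit the DRE was found at 14 of 64 members (21.9%), against 6.49% of all bound genes, within 100 bp on either side. CACGTG was found there at 8 members (12.5% against 2.13%), GGTCACAC at 6 (9.38% against 3.65%) and GAGAG at 7 (10.9% against 23.7%). The members with CACGTG near the summit included the small subunit genes RpS4 and RpS28b. The stretches below show such words in capitals at members of both subunits, in the gene's direction, from the RefSeq Release 6 genome. RpL34a (chr3R:26059288-26059325, minus strand), RpS25 (chr3R:11216324-11216361, minus strand), RpL28 (chr3L:3223030-3223067, minus strand) and RpS14a (chrX:7933663-7933700, plus strand) hold the DRE. RpL7 (chr2L:10200975-10201012, plus strand) holds the Motif 1 core, which reads GTGTGACC here because it lies on the opposite strand. RpL24 (chr2L:13395155-13395190, minus strand) and RpL8 (chr3L:2587505-2587540, plus strand) hold the E-box.
RpL34a: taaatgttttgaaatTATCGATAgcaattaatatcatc
RpS25: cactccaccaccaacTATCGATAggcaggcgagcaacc
RpL28: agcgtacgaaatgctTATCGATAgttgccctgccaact
RpS14a: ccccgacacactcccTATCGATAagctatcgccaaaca
RpL7: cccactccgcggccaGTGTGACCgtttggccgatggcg
RpL24: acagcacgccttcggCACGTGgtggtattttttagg
RpL8: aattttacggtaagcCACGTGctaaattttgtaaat
The centre of the word lay 22.5 bp downstream of the summit at RpS25 and 66.5 bp downstream at RpL34a, and -24.5 bp and -41.5 bp from it, that is upstream, at RpL28 and RpS14a. A match is a description of the letters and not evidence of a factor at the site.

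Genes that host small nucleolar RNAs, the guides of ribosomal RNA modification, were bound at a higher share than the other members, with intervals that overlap. A snoRNA gene lay inside 28 members, of which 24 (85.7%, 67.3% to 96.0%) were bound, and 40 of the 60 others (66.7%, 53.3% to 78.3%) were bound, against 18.9% of all genes. Of the 56 other protein-coding genes with a snoRNA gene inside, 21 (37.5%, 24.9% to 51.5%) were bound. RpS5a held the most, with 14, and RpS7 held 7. Bound members were also longer, with a median gene length of 1392 bp against 992 bp for unbound members. By chromosome arm, 13 of 14 members on X, 11 of 13 on 3L, 13 of 19 on 2R, 15 of 23 on 3R and 11 of 18 on 2L were bound, where the shares of all protein-coding genes were 17.4%, 19.8%, 18.6%, 20.1% and 18.1% in the same order. The exact intervals of the members on these arms all overlap, and differences between arms were not tested. RpS3A, the 1 member on chromosome 4, was bound at a signal of 217 in replicate 1, 174 in replicate 3 and 385 in the pooled list, 5 bp inside its start.

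The mitochondrial ribosome and the proteasome, which like the cytoplasmic ribosome are built from many proteins, were bound at lower shares. All 5 further components of that ribosome had an IDR-thresholded summit: RpLP0 (623), RpLP1 (507), Rack1 (403), sta (388) and RpLP2 (258). Of the 73 mitochondrial ribosomal protein genes, 20 were bound (27.4%, 17.6% to 39.1%), and of 48 proteasome genes 9 (18.8%, 8.95% to 32.6%), against 18.9% of all genes. In this IDR-thresholded list both intervals lie below that of the cytoplasmic ribosomal protein genes. In the full list of replicate 1 the mitochondrial share was 68.5% (56.6% to 78.9%), against 44.2% of all genes. That interval overlaps the members' interval there (76.1% to 91.9%). In replicate 3 the mitochondrial share was 54.8%, against 42.4% of all genes, and in the pooled list 52.1%, against 41.4%. The highest mitochondrial peaks, at mRpS10 (2838), mRpS23 (2627) and mRpL41 (2536), were above that of any cytoplasmic member. At mRpS10 and mRpS23 the starts of Art3 and CenG1A also lay within 500 bp of the summit. The summits of the mitochondrial group lay farther from the start, at a median of 141 bp. In the proteasome the median was 167 bp, and Rpn3 (397), Prosalpha7 (367) and Rpn6 (312) were highest. Of 7 elongation factor genes 4 were bound, led by eEF1gamma (918), eEF2 (418) and eEF1alpha1 (330), and of 17 ribosome assembly genes 5, led by eIF6 (1138), NHP2 (605) and Surf6 (362). NHP2 had a signal of 379 in replicate 1 and no summit within 500 bp of a start in replicate 3. The 4 genes of factors that act at housekeeping promoters were all bound, at M1BP (857), Dref (594, the peak shared with RpL13), Trl (357) and Trf2 (213). At the 4 bound elongation factor genes the median distance was 18.5 bp, so summits close to the start were not particular to the members. It was 69 bp at the 5 further ribosome components, 158 bp at the bound assembly genes and 125 bp at the housekeeping promoter factors.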

How the data were processed

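ChIP-seq peak lists of 2 replicates (numbers 1 and 3, 1 group) were used. Per the deposited file descriptions, each replicate's list was called on that replicate, the pooled list on both, and the IDR-thresholded list came from these 3, and 1 control served every list (not analysed here). The sources used here do not name the aligner, the peak caller or the cut-off on IDR. The deposited signal of each peak is the authors' caller's own score, and it was compared within a list only. The deposited −log10 q-value stops at a ceiling of 4.28 in the pooled list and did not serve for ranking, and the deposited p-value column holds a placeholder and was not used. Depth is unknown.

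Genes and starts came from Ensembl release 115 (BDGP 6.54) and letters from RefSeq Release 6, where the symbol, arm, start and end of all 88 members were the same. The highest summit within 500 bp of any start represented a gene. Shares have exact Clopper-Pearson intervals (95%), and no test was run, since 1 group gives no contrast. Python 3.11.15, numpy 2.4.6, scipy 1.17.1 and matplotlib 3.10.9 were used, and the counting was tested on simulated data.

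The members, lists and words were chosen with earlier results of these data known. Named genes were the 12 highest members, all unbound members and family copies. Also named were genes with the 3 highest and 3 lowest replicate ratios, the 2 nearest the distance limit on each side, and up to 3 leading genes per comparison list. Comparison lists in which every gene was bound were named in full, and this and other genes named as examples were chosen after their values were seen. Of the genes so named, 3 are not reported here by name and are left out of the plot of heights by gene, while counts and medians include them. The mitochondrial list held symbols starting mRpL or mRpS and a digit, and the proteasome list Prosalpha, Prosbeta, Rpn and Rpt with a digit. The elongation list held eEF1alpha1, eEF1alpha2, eEF1beta, eEF1gamma, eEF1delta, eEF2 and eEF5. The assembly list held Fib, Nop56, nop5, Nop60B, NHP2, Nopp140, Nnp-1, Non1, ppan, pit, Nmd3, eIF6, RIOK1, RIOK2, Surf6, Tif-IA and Myc. Alternatives were distances of 250 and 1000 bp, the gene start alone, the strongest 2853 peaks, the pooled list, each replicate left out, copies left out, and peak intervals covering a start.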

Additional observations from a re-analysis of the deposited data

How the results depend on the processing

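Over all alternatives the number of bound members lay between 45 (strongest 2853 peaks) and 73 (pooled list), and with either replicate left out between 61 and 67. With the strongest 2853 peaks, bound small subunit members fell to 15 and the median height rose to 481, against 491 for all bound genes there. The median height was 389 in the pooled list and 200.3 to 220 with either replicate left out, on those lists' own scales. The signed median distance turned to 22.5 bp with the gene start alone. It was -5 bp at 250 bp, in the strongest peaks, in the pooled list and with peaks covering a start, 0.0 bp without copies, and -3 to -2 bp with either replicate left out. Alternatives for the distance without regard to side were added after seeing the data: its median was 51.5 bp with the gene start alone, 29 bp without neighbouring starts, and 30 to 43 bp with either replicate left out. Members with a neighbouring start at the summit numbered 15 at 250 bp and 45 at 1000 bp. At the summit in place of the gene start, DRE counts fell to 14, Motif 1 to 6 and GAGA to 7, and E-box counts rose to 8. The causes of these shifts were not tested. No paired analysis was possible because the design holds 1 group. Read depth is unknown, so its effect on the weaker members cannot be given.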
